A study of Mus musculus with 12 samples.

Results

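The microRNAs described here lie on the Mirg side of the imprinted Dlk1-Dio3 domain, on mouse chromosome 12. They were chosen by name: every listed mature microRNA, 5p or 3p, of 34 hairpins from miR-379 to miR-410. That gave 57 of the 616 listed mature microRNAs, 27 from 5p arms and 30 from 3p arms, belonging to 33 of the 34 hairpins. Small RNA had been sequenced from CD1 mouse embryos, in primordial germ cells (PGC), which later give rise to the gametes, and in the somatic cells (SC) of the same gonads. Female and male PGC and female and male SC were taken at embryonic day E11.5, at E12.5 or at E13.5, 1 library per condition and 12 in all. The labels name no treatment and no mutant allele in any group. Each library came from a pool of about 80 gonads freed of the mesonephros, and cells were separated with magnetic beads against CD15, so the SC fraction is everything the beads did not hold. By a staining for germ cells the submitters put the PGC fractions at 93 to 96% germ cells and the SC fractions at over 90% somatic cells. No condition has a replicate, so p-values here measure only the spread between these libraries across days and sexes.

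A mature microRNA guides an Argonaute protein to messenger RNAs that pair with its seed, the bases near its 5′ end, and lowers their translation or stability. The Dlk1-Dio3 domain is imprinted: its protein-coding genes are expressed from the father's chromosome, and its long noncoding RNAs and microRNAs (Meg3, Rian, Mirg and others) from the mother's. The cluster from miR-379 to miR-410 is found in placental mammals and is best known from brain, where Mef2 drives it in active neurons. Mice that lack it have trouble with metabolism after birth and show altered anxiety-like behaviour. The days sampled here are those on which germ cells erase imprints and the gonads become ovary or testis.

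The members shown here carry the results: the 10 with the highest mean level, those that share a seed, those with their lowest values at E12.5, near copies of these, the largest change over days, and the arms of 2 hairpins whose arm use varied. Letters in capitals are the seed, bases 2 to 8, written 5′ to 3′, from RefSeq (GRCm38.p6).
miR-541-5p: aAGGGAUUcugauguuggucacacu
miR-379-5p: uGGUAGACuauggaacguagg
miR-411-5p: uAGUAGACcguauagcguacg
miR-379-3p: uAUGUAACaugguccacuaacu
miR-411-3p: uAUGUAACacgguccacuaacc
miR-381-3p: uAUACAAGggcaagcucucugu
miR-300-3p: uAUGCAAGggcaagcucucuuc
miR-299a-3p: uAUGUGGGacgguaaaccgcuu
miR-380-3p: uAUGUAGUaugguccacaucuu
miR-495-3p: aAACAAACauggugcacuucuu
miR-543-3p: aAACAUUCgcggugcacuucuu
miR-134-5p: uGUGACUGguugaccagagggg
miR-382-5p: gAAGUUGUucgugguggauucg
miR-409-3p: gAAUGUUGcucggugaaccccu
miR-410-3p: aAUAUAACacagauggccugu
miR-758-3p: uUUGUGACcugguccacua
miR-494-5p: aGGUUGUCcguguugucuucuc
miR-410-5p: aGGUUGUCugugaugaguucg
miR-299a-5p: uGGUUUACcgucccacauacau
miR-369-5p: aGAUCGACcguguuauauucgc
miR-369-3p: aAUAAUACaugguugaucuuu

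Mature sequences were matched for 53 of the 57 members, and these held 51 different seeds. Of the seeds, 2 were shared: AUGUAAC by miR-379-3p and miR-411-3p, and GGUUGUC by miR-494-5p and miR-410-5p. Several members were close copies of each other. With positions counted from 1 at the 5′ end, miR-411-3p differed from miR-379-3p by U10C and U22C, and was identical at 20 of 22 bases. miR-381-3p differed from miR-300-3p by G4A, U21G and C22U, of which G4A lies in the seed. miR-495-3p differed from miR-543-3p by U6A, U7A, G9A and C10U, at 18 of 22 bases identical. How reads that fit more than 1 mature microRNA were counted is not given in the sources used here, so the split of reads within such pairs is uncertain.

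Some short stretches recurred. GGUNNAC, where N is any base, stood in 11 of 27 3p members (40.7%) and 5 of 26 5p members (19.2%), against 6 of the 473 other listed microRNAs with a matched sequence (1.27%). AGGUU stood in 8 of 26 5p members (30.8%), in 0 of 27 3p members and in 16 of 473 others (3.38%). These counts are a description with no test, and close copies such as miR-379-3p, miR-411-3p and miR-758-3p each count in them. Both stretches were searched on the mature strand alone. The letters GGU are common to both, but no member held both. Some matches overlap the seed, as in miR-299a-5p. The 33 hairpins occupy 34.7 kb of chromosome 12, from 109709060 to 109743795 on the plus strand (GRCm38.p6). The annotated noncoding gene Mirg spans 109734981 to 109749458, and 8 of the 33 hairpins lie inside it: miR-154, miR-496a, miR-377, miR-541, miR-409, miR-412, miR-369 and miR-410. The other 25 lie before its annotated start.

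The deposited values were normalised counts from which whole reads could be taken back. Totals ran from 166804 reads (PGC female E12.5) to 1768825 (SC female E11.5), a 10.6-fold range, and a value of 0 stands for fewer than 5 reads, that is under 2.83 to 29.98 RPM (reads scaled to a total of 1000000 microRNA reads). The size factors behind the deposited values ran from 0.614 to 1.58 and were highest in the shallowest library, so the sums of deposited values differ more than the reads, from 105730 to 2158040, a 20.4-fold range. Each comparison was hence run on 2 scales: that of the deposited values, and equal totals, where every library is brought to the same sum (RPM). The miR-290 family, which marks germ cells, stood at 71284 to 143011 RPM in 5 of the 6 PGC libraries and at 244 to 6036 RPM in SC. The library labelled PGC female E11.5 stood apart with 2348 RPM, below both SC libraries of E13.5. For the fitted comparisons that rest on it, the members' counts or medians are given with and without it. Values of single members are given with it only.

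Together the 57 members made up a large part of the microRNA pool. On the first day, E11.5, they took 9.83% of reads in female PGC (95% exact binomial interval 9.78 to 9.89), 6.48% in male PGC (6.41 to 6.56), 10.3% in female SC (10.2 to 10.3) and 10.2% in male SC (10.1 to 10.2). At E12.5 the PGC shares were 2.74% in females (2.66 to 2.82) and 1.74% in males (1.68 to 1.80), and the SC shares were 7.11% (7.07 to 7.16) and 7.43% (7.38 to 7.47). At E13.5 they were 2.23% (2.18 to 2.27) and 1.24% (1.20 to 1.27) in PGC, and 6.73% (6.69 to 6.77) and 6.99% (6.94 to 7.04) in SC. These intervals cover counting error only. In each of the 6 pairs of the same day and sex the share was lower in PGC, from 0.959 of the SC share in females at E11.5 to 0.177 in males at E13.5. In E11.5 females the pair was thus nearly level, and that is the pair with the PGC library that stands apart. In these sorted pools, fewer cells of a type and less RNA per cell cannot be told apart.

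**Figure D1:**
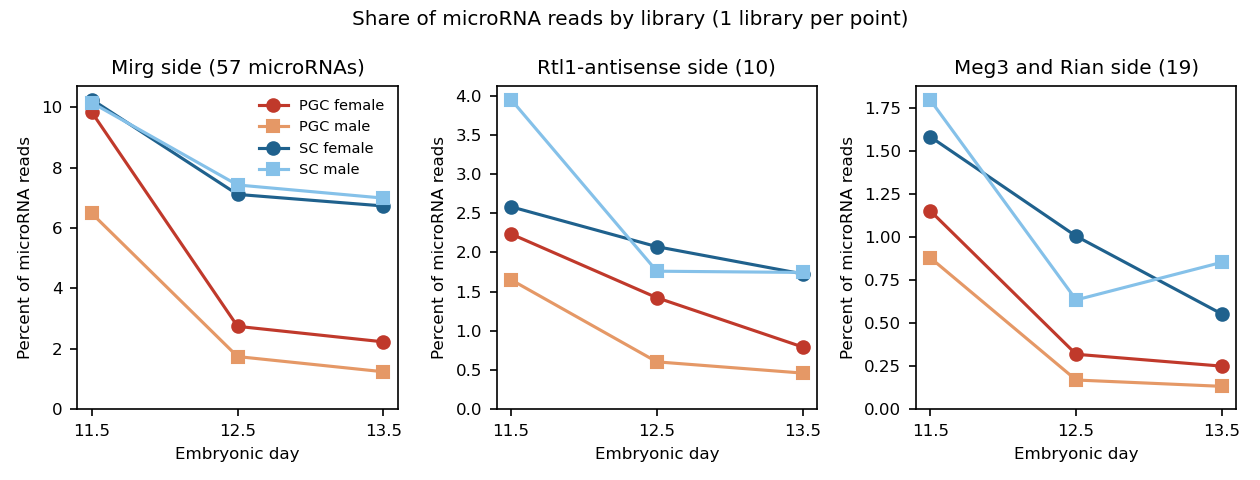
Percent of microRNA reads (vertical axes, different scales) by embryonic day for the 57 Mirg-side microRNAs and, beside them, the 10 and 19 listed microRNAs of the other regions of the domain; each point is 1 library, red and orange PGC, blue SC. The Mirg-side share was between 1.24% and 2.74% in the 4 PGC libraries of E12.5 and E13.5 and between 6.73% and 7.43% in the SC libraries of those days.

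The mesenchymal list (miR-199a, miR-199b, miR-214, miR-143 and miR-145a), all 10 members of which were tested, followed this share only in part. It summed to 97255 RPM in PGC female E11.5 and 66336 RPM in PGC male E11.5, to 22553 and 12249 RPM at E12.5, and to 31513 and 9726 RPM at E13.5. In female PGC it thus rose from E12.5 to E13.5, while the members' share fell. In SC it lay between 82358 and 130881 RPM. From E11.5 to E13.5 it had 130881, 105583 and 127172 RPM in female SC and 98917, 110970 and 82358 RPM in male SC. The members' share fell from day to day in both. By pair its PGC level was 0.743, 0.671, 0.214, 0.110, 0.248 and 0.118 of the SC level (females before males, E11.5 to E13.5), beside 0.959, 0.639, 0.385, 0.234, 0.331 and 0.177 for the Mirg-side members. The members summed to 0.707 to 1.42 times the mesenchymal list in the PGC libraries and to 0.529 to 1.03 times in SC. The endothelial microRNAs (miR-126a, 2 of 2 tested) ran from 4669.5 to 51442 RPM in PGC and from 16087.5 to 37105 RPM in SC, highest in PGC female E11.5. Muscle microRNAs were at 0 in 3 of the 6 PGC libraries and liver microRNAs in 3. The part of these cell types in the members' results was not tested.

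A few members held most of the reads. miR-541-5p, miR-379-5p and miR-411-5p took 45.7% of the members' summed mean RPM, and the 10 highest took 74.4%. By mean RPM over the 12 libraries 16 members were above 1000, 17 between 100 and 1000, and 24 under 100. miR-541-5p had 18105, 6505 and 4237 RPM in female PGC and 11122, 4257 and 2203 RPM in male PGC from E11.5 through E13.5. In SC it had 14619, 14096 and 11404 RPM in females and 17280, 14546 and 10318 RPM in males. It had the highest mean of the members in both fractions, in SC only just above miR-379-5p, and its PGC libraries overlapped with SC only at E11.5.

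miR-379-5p, the first microRNA of the cluster, had 15680, 1888 and 3084 RPM in female PGC and 10972, 1982 and 1963 RPM in male PGC. In SC it stayed between 10898 and 15877 RPM in all 6 libraries. miR-411-5p, encoded about a kilobase further on, had 9988, 1697 and 2526 RPM in female PGC and 7317, 1596 and 1848 RPM in male PGC, against 8638 to 13983 RPM in SC. For miR-379-5p and miR-411-5p alike, the 4 PGC libraries of E12.5 and E13.5 lay far below every SC library.

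The other members of the top 10 differed more among themselves. miR-134-5p, which limits the growth of dendritic spines through Limk1, averaged 1776 ± 1569 RPM in PGC and 3688 ± 1053 in SC (SD, n = 6). miR-495-3p, a repressor of Bdnf, averaged 2174 ± 1966 and 3379 ± 1194 RPM. miR-382-5p averaged 2009 ± 1315 and 3025 ± 622 RPM, and miR-410-3p, the last of the cluster, 1152 ± 1163 and 2395 ± 893 RPM. miR-409-3p averaged 1576 ± 1135 and 2259 ± 929 RPM. In PGC each of these 5 was higher in both E11.5 libraries than in any later one.

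Detection followed level and depth. In the SC libraries 51 to 56 of the 57 members reached 5 reads. In female PGC 54, 33 and 43 did so from day to day, and in male PGC 47, 34 and 35. The 2 PGC libraries of E12.5 are also the 2 with the fewest reads. In all, 116 of 684 values were 0 and 30 members were detected in all 12 libraries. The members miR-495-5p, miR-496a-5p and miR-539-3p were at 0 in every PGC library, with at most 12.4 RPM in any SC library.

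**Figure D2:**
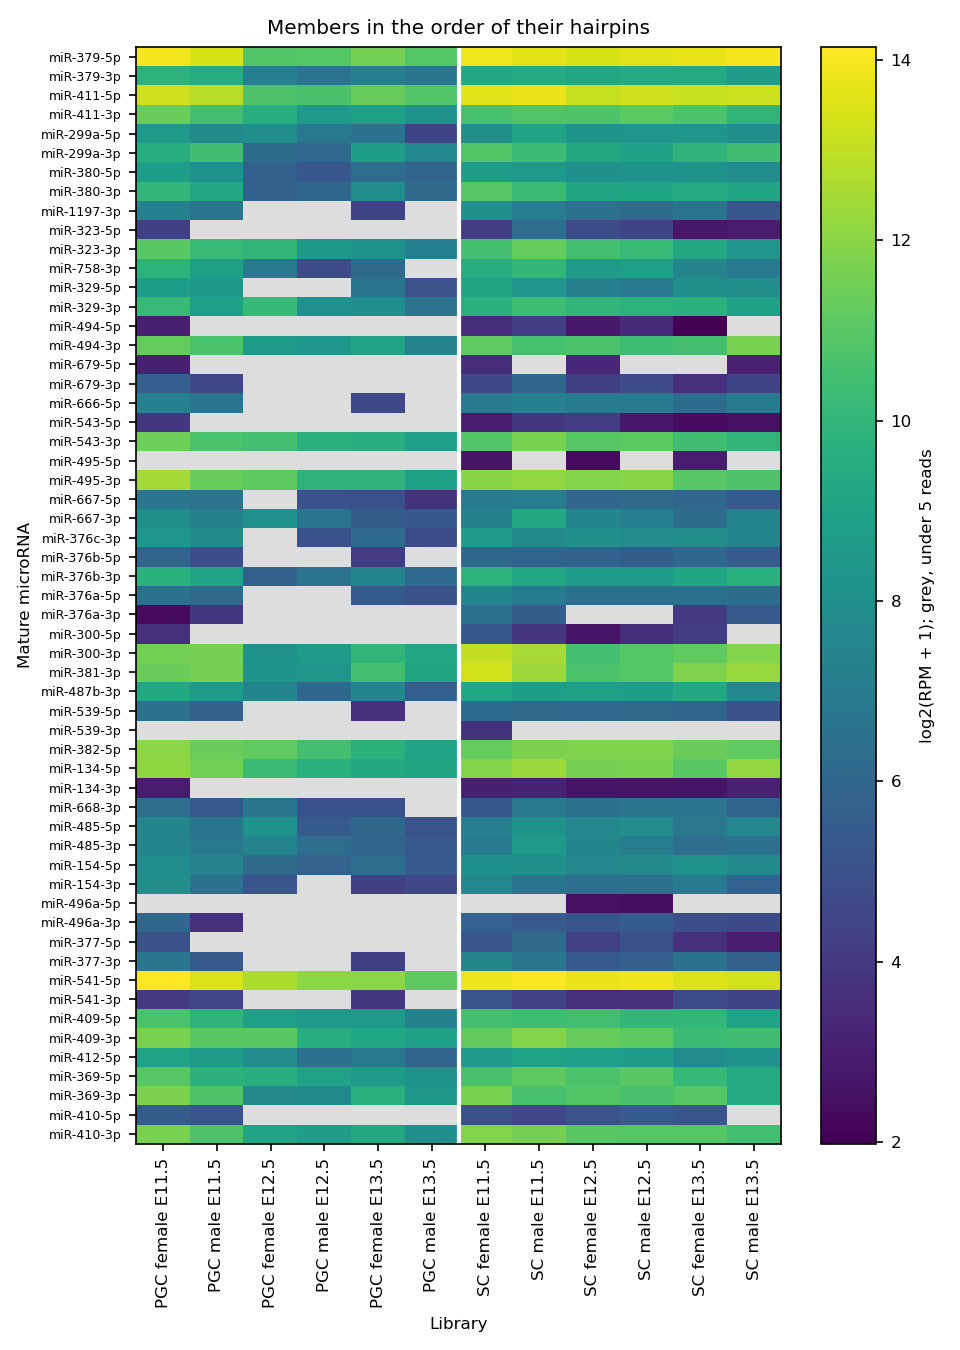
Level of each of the 57 members as log2(RPM + 1) (colour) in the 12 libraries (columns; PGC left and SC right of the white line), in the order of the hairpins along the chromosome; grey marks fewer than 5 reads. Grey fields gather in the 4 PGC libraries of E12.5 and E13.5, where 33 to 43 members were detected.

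The first comparison asked how the germ cell and somatic fractions differ, over the 6 pairs of the same day and sex. For 53 members the mean normalised count over all 12 libraries reached 5, the minimum for a test with limma. Some passed only through SC, as miR-134-3p did with means of 0.98 in PGC and 9.59 in SC. The others with a PGC mean under 5 were miR-376a-3p, miR-543-5p, miR-541-3p, miR-300-5p, miR-494-5p, miR-323-5p and miR-377-5p. For these a lower mean in PGC followed from the minimum, so their direction is no finding. All 53 were lower in PGC on the deposited scale, where 77.2% of all 513 tested microRNAs were called lower (adjusted p under 0.05). The members' median log2 difference was -3.58 (range -4.76 to -2.52), against -2.57 over all tested microRNAs. At equal totals 35 of the 53 were lower, against 25.5% of all tested, with a median of -1.75 (range -3.80 to -0.62) against -0.74. The members' median minus that of all microRNAs was -1.01 at equal totals and nearly the same on the deposited scale. All 35 were also called on the deposited scale.

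Among the abundant members miR-381-3p had the largest difference. It had 2724, 312 and 1453 RPM in female PGC and 3172, 315 and 563 RPM in male PGC, against 10206, 1676 and 3681 RPM in female SC and 5340, 1940 and 4903 RPM in male SC. It was lower in PGC in all 6 pairs, by a log2 difference of -4.25 on the deposited scale (95% interval -5.67 to -2.82, adjusted p = 0.0002) and of -2.03 at equal totals (-2.77 to -1.29, adjusted p = 0.00222). Its near-copy miR-300-3p was also lower in 6 of 6 pairs (-4.01, adjusted p = 0.0002, and -1.78, adjusted p = 0.00283). miR-411-5p had log2 differences of -3.96 (adjusted p = 0.000227) and -1.73 (adjusted p = 0.00542), in 6 of 6 pairs on both scales. miR-541-5p had -3.38 (adjusted p = 0.000296) and -1.15 (adjusted p = 0.0253), lower in PGC in 5 of 6 pairs at equal totals.

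The largest differences by the naming rule belonged to members near the floor in PGC. miR-666-5p had 156 and 99.3 RPM in female and male PGC at E11.5, 0 in both at E12.5, then 23.2 and 0 RPM at E13.5, against 76.8 to 152 RPM in SC. Its log2 difference was -4.76 (adjusted p = 0.000239), and -3.80 at equal totals (adjusted p = 0.0265). miR-1197-3p (-4.54 and -3.58), miR-377-3p (-4.48 and -3.53), miR-758-3p (-4.42 and -2.50) and miR-329-5p (-4.34 and -3.13) came next on the deposited scale among members with a mean of at least 50, all called on both scales. Because these fits add 1 to each value before taking logs, values of 0 set the size of these differences in part.

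At the other end stood members that PGC and SC shared more evenly in RPM. miR-543-3p (-2.92 on the deposited scale) had -0.69 at equal totals (95% interval -1.37 to -0.01, adjusted p = 0.0939). miR-667-3p had -0.69 (-1.82 to 0.43, adjusted p = 0.28), miR-485-3p, whose hairpin also gives a repressor of the synaptic protein Sv2a, -0.62 (-1.63 to 0.39, adjusted p = 0.281), miR-409-3p -0.77 (-1.47 to -0.08, adjusted p = 0.0698) and miR-323-3p -0.86 (-1.59 to -0.14, adjusted p = 0.0568). These 5 did not pass at equal totals. The sign was negative for all 53 tested members on both scales, those that passed the minimum only through SC among them.

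Day by day, the pairs were not alike. In RPM at E11.5, 31 of 57 members were higher and 25 lower in PGC than in SC in females, and 7 were higher and 46 lower in males. At E12.5, 4 were higher and 51 lower in females, and 0 were higher and 53 lower in males. At E13.5, 0 were higher and 54 (females) and 51 (males) lower, the rest being at 0 in both. The median log2 difference in RPM over the pairs was 0.06 in females and -0.78 in males on the first day, -2.33 and -2.60 the next, and -1.63 and -2.40 on the last. Over all tested microRNAs the same medians were 0.08, -0.20, -0.72, -0.97, -0.37 and -0.28. Both PGC libraries lay below both SC libraries of the day for 13 members on the first day, 48 on the next and 49 on the last. For 35 members all 4 PGC libraries of E12.5 and E13.5 lay below all 6 SC libraries, and for 0 did all 6 PGC libraries. Values of 0 in PGC count as below here. How many of all microRNAs met these rules is not given, so these counts describe the members and do not set them apart.

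The count at equal totals moved with the libraries used. Without the PGC libraries of E12.5, 0 of 53 members were called lower by limma (18 at an unadjusted p under 0.05, and 12 by voom on all 12 libraries). Of all microRNAs 0.0% were then called lower, and the members' median was -1.30 with 53 of 53 negative. On the deposited scale 50 were then called, against 55.0% of all. Without the PGC libraries of E11.5, 43 were called at equal totals (32.9% of all) and 52 on the deposited scale (77.2%). Without PGC female E11.5 alone these were 44 (31.2%) and 53 (74.3%). A library left out takes its pair with it: without an E12.5 library 9 to 11 were called at equal totals (7.21 to 8.19% of all microRNAs), without an E13.5 library 12 to 20 (9.36 to 13.3%), and without an E11.5 library 32 to 44 (23.0 to 31.6%). The percentages in this paragraph are microRNAs called lower, and they became smaller or larger along with the members' counts.

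**Figure D3:**
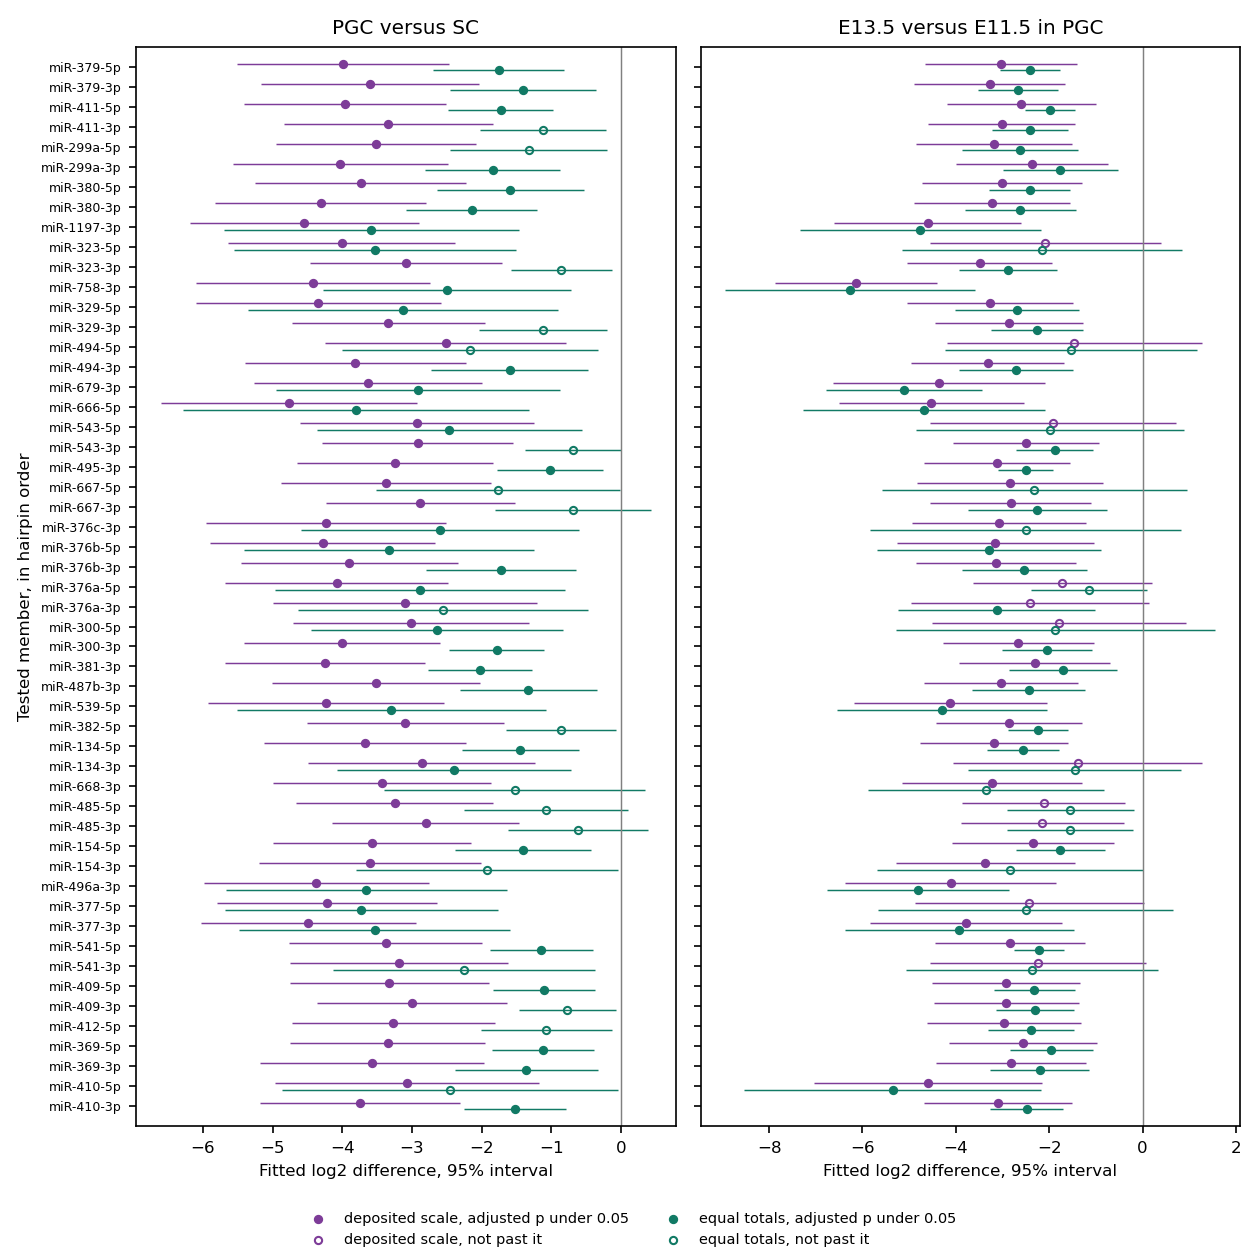
Fitted log2 difference (horizontal axes) with its 95% interval for each of the 53 tested members, in hairpin order, for PGC minus SC (left) and for E13.5 minus E11.5 in PGC (right), on the deposited scale (purple) and at equal totals (green); filled points passed an adjusted p of 0.05. All points lie below 0, and 53 and 35 (left) and 42 and 39 (right) are filled.

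The second comparison followed the members from E11.5 to E13.5, and asked how each fraction changed as the gonads became ovary or testis. In PGC 42 of 53 tested members fell on the deposited scale, where 25.1% of all tested microRNAs did, and 39 at equal totals, against 21.4% of all. The members' median log2 change was -2.97 (range -6.14 to -1.39) and -2.41 at equal totals, against -0.99 and -0.41 over all tested microRNAs. Relative to all microRNAs the medians were -1.99 and -2.01. Of the members, 38 were called on both scales. Of the 53 tested members 10 were at 0 in both E13.5 PGC libraries, and with these at their bound of 5 reads in each library the medians were -2.86 and -2.32.

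miR-758-3p had the largest change. In female PGC it had 916, 119.9 and 72.0 RPM, and in male PGC 471, 27.1 and 0 RPM, from E11.5 to E13.5. Its log2 change was -6.14 (95% interval -7.88 to -4.39, adjusted p = 2.92e-07), and -6.27 at equal totals (adjusted p = 0.00732), where the 0 in PGC male E13.5 and the added 1 set part of its size. In SC the same microRNA had 753, 397 and 184 RPM in females and 1057, 477 and 125 RPM in males, all 4 later libraries below both of E11.5. Its SC change was -2.19 (adjusted p = 0.11) and -2.55 at equal totals (adjusted p = 0.222), so it did not pass there.

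Among the abundant members, miR-379-5p had a log2 change of -3.03 (95% interval -4.66 to -1.41, adjusted p = 0.00298) and of -2.41 at equal totals (-3.05 to -1.77, adjusted p = 0.00294). miR-541-5p had -2.83 (adjusted p = 0.00475) and -2.22 (adjusted p = 0.00235), and miR-495-3p -3.12 (adjusted p = 0.00168) and -2.51 (adjusted p = 0.00235). miR-494-3p went from 2444 to 551 RPM in females and from 1684 to 173 RPM in males, a log2 change of -3.32 (adjusted p = 0.00147) and -2.71 (adjusted p = 0.00906). All 4 fell in both sexes.

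miR-1197-3p (-4.61), miR-666-5p (-4.53), miR-539-5p (-4.12) and miR-377-3p (-3.79) had the next largest changes among members with a mean normalised count of at least 50, each at 0 in PGC male E13.5 and at both E12.5 libraries. The smallest among members with a mean of at least 50 were those of miR-376a-5p (-1.72, adjusted p = 0.179), miR-485-5p (-2.12, adjusted p = 0.0525) and miR-485-3p (-2.14, adjusted p = 0.051), which did not pass, and of miR-381-3p (-2.31, adjusted p = 0.0221) and miR-154-5p (-2.35, adjusted p = 0.029), which did. miR-485-5p had 182, 288 and 65.1 RPM in female PGC, highest at E12.5, and 104, 43.4 and 33.1 RPM in male PGC.

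The number of calls moved with single libraries. Without PGC female E11.5, the library with few miR-290 reads, 1 of 53 members passed on the deposited scale, when 1.75% of all microRNAs did, and 22 passed at equal totals, when 13.3% did. The median change was then -2.28 and -2.40, with 47 members negative and 0 positive. Without PGC female E13.5, 8 and 35 passed (3.90 and 16.2% of all microRNAs). Without PGC male E13.5 these were 11 and 19 (9.75 and 11.9%), and without PGC male E11.5, 43 and 23 (23.8 and 13.3%). These percentages are microRNAs called lower, and they also became smaller in each case. The germ-cell list went the other way in PGC, with 13 of 13 tested members positive and 11 called higher on the deposited scale (0 at equal totals, with 12 at an unadjusted p under 0.05). The mesenchymal list fell for 10 of 10 members (9 at equal totals), with medians of -2.99 and -2.41. The gonadal somatic list (miR-202) rose, with 2 of 2 called higher on both scales (medians 2.96 and 3.93). Of all 513 microRNAs 40 and 38 were called higher. Without PGC female E11.5, 0 of 13 germ-cell microRNAs were called by limma on either scale (0 at an unadjusted p under 0.05 as well), and their median went from 2.43 to 0.82 on the deposited scale and from 3.06 to 0.71 at equal totals. The mesenchymal list then had 1 and 10 of 10 called, with medians of -2.65 and -2.75. The part of these lists in the members' fall was not tested.

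In SC the same days brought little change that passed. On the deposited scale 0 of 53 members were called by limma (3 at an unadjusted p under 0.05), where 2.53% of all microRNAs were lower. By voom on reads, whose scale is that of equal totals, 4 were called lower. At equal totals miR-495-3p (-1.21, adjusted p = 0.0297) and miR-323-3p (-2.08, adjusted p = 0.0324) fell, 2 of 53, against 1.36% of all tested. miR-495-3p had 4093, 3729 and 2051 RPM in female SC and 4625, 4048 and 1726 RPM in male SC, and miR-323-3p 1524, 1475 and 659 RPM and 2467, 1144 and 319.7 RPM. With each of the 12 libraries left out in turn, both remained called only without SC female E13.5, and the count ran from 0 to 5. The median change in SC was -0.48, and -0.84 at equal totals, with 43 and 50 members negative. Without SC female E11.5 the deposited median was 0.45 with 34 members positive, so its direction turned, while at equal totals it was -0.74. Without SC female E13.5 the deposited median was -0.03, with 26 members positive.

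Members at the upper end in SC had changes near or above 0. miR-494-3p had 2344, 1666 and 1522 RPM in female SC and 1531, 1315 and 3275 RPM in male SC (log2 change 0.60, adjusted p = 0.838), the sexes going opposite ways. miR-379-5p (0.46, adjusted p = 0.897), miR-668-3p (0.57, adjusted p = 0.886), miR-154-5p (0.27, adjusted p = 0.96) and miR-376b-3p (0.26, adjusted p = 0.96) did not pass either.

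The difference between the 2 fractions' changes was tested directly. On the deposited scale 0 of 53 members passed by limma (30 at an unadjusted p under 0.05, and 0 by voom), with 0.78% of all microRNAs called. At equal totals 0 passed (23 unadjusted), with 0.0% of all called. The smallest adjusted p was that of miR-494-3p on the deposited scale (-3.92, 95% interval -6.24 to -1.61, adjusted p = 0.0719) and of miR-379-5p at equal totals (-2.51, -3.42 to -1.61, adjusted p = 0.0636). The members' median difference was -2.49 and -1.66, and 50 of 53 were negative on each scale. Without PGC female E11.5 the medians were -1.86 and -1.77, with 48 and 46 negative. A steeper fall in PGC than in SC is therefore not shown at the threshold used.

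Over the 3 days the members fell into unlike courses. Of the 30 members detected in all 12 libraries, 13 had more RPM at E12.5 than at E13.5 in all 4 series of cell type and sex: miR-541-5p, miR-495-3p, miR-382-5p, miR-409-3p, miR-543-3p, miR-411-3p, miR-369-5p, miR-323-3p, miR-409-5p, miR-329-3p, miR-412-5p, miR-485-5p and miR-485-3p. In 4 members E12.5 was the lowest of the 3 days in all 4 series: miR-381-3p, miR-300-3p, miR-299a-3p and miR-380-3p. These groups were formed from the values, so they are a description with no test. In the domain's other regions miR-434-5p and miR-341-3p, among others, were also lowest at E12.5 in all 4 series, while miR-127-3p was not. How many of all microRNAs had either course is not given, so the courses do not set the members apart.

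miR-300-3p had 3159, 299.8 and 1002 RPM in female PGC, 3230, 407 and 594 RPM in male PGC, 8259, 1467 and 2322 RPM in female SC and 5976, 1941 and 3820 RPM in male SC. miR-299a-3p had 743, 77.9 and 435 RPM, 1345, 70.6 and 198.8 RPM, 1914, 670.0 and 961 RPM, and 1278, 489.7 and 1352 RPM in the same order. In both, the E12.5 value was below either neighbour in germ and somatic libraries alike. miR-381-3p and miR-300-3p share 19 of 22 bases, so their reads may be counted in part for each other.

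miR-382-5p, by contrast, had 4131, 2284 and 897 RPM in female PGC, 2680, 1509 and 551 RPM in male PGC, 2473, 3638 and 2638 RPM in female SC and 3460, 3643 and 2296 RPM in male SC. It stepped down day by day in PGC and was highest at E12.5 in SC. miR-409-3p had 3348, 2092 and 616 RPM and 2123, 809 and 469 RPM in female and male PGC, and 2408, 2556 and 1266 RPM and 3801, 2177 and 1344 RPM in female and male SC. With 1 library for each day and sex, a change of library and a change of day cannot be told apart.

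**Figure D4:**
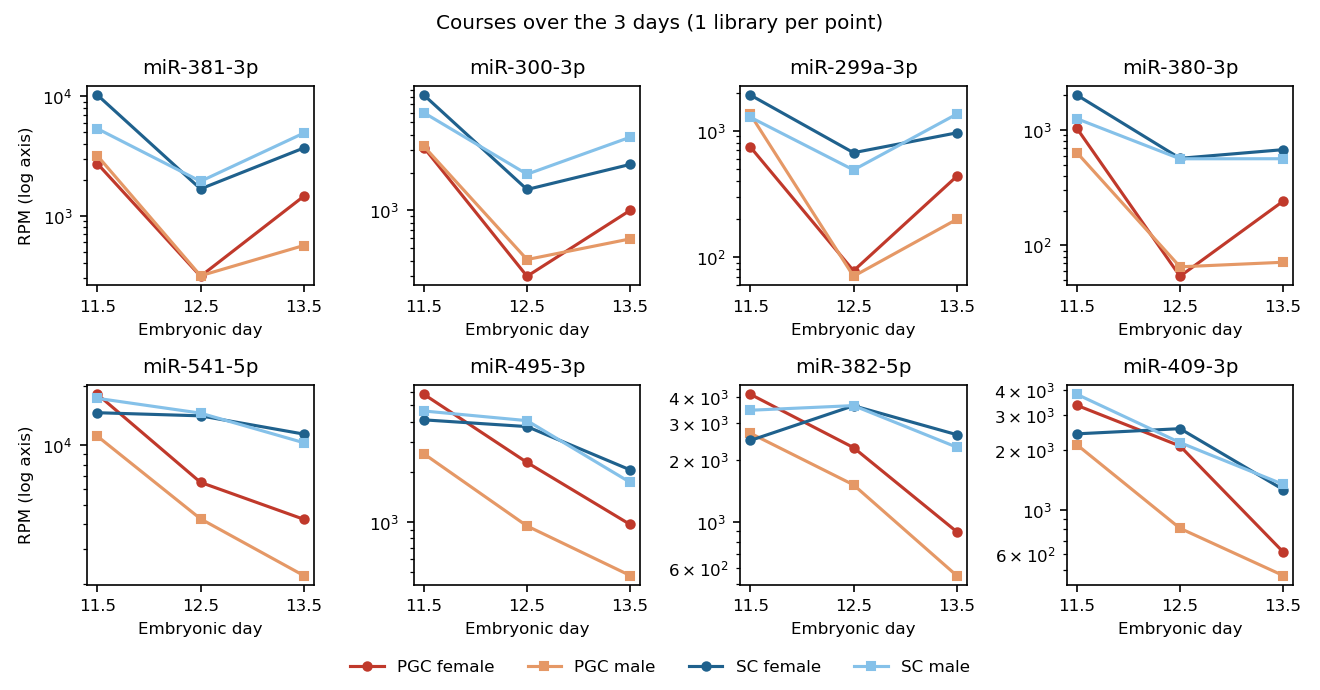
RPM (logarithmic vertical axes, different ranges) by embryonic day for the 4 members with their lowest value at E12.5 in all 4 series (top) and for the 4 most abundant of the 13 members with more at E12.5 than at E13.5 (bottom); each point is 1 library. miR-300-3p went from 3159 to 299.8 and back to 1002 RPM in female PGC, and miR-382-5p from 4131 to 2284 to 897 RPM.

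The third comparison was between the sexes. In PGC 1 of 53 members was called on the deposited scale, lower in males (0.39% of all microRNAs were called in either direction), and 0 at equal totals (17 at an unadjusted p under 0.05, and 0 by voom; 0.0% of all). The one called was miR-758-3p (male minus female -2.85, 95% interval -4.27 to -1.42, adjusted p = 0.0462; lower in males on 3 of 3 days), with -3.08 at equal totals (adjusted p = 0.268). With single libraries left out in turn, PGC female E11.5 among them, 0 of 53 were called except without either SC library of E13.5. The members' median was -1.09, and -0.81 at equal totals, against -0.45 and -0.13 over all tested microRNAs. Without PGC female E11.5 the members' medians were -0.58 and -0.74, against 0.0 and -0.02 over all.

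Counted by day in RPM, 25 of the 57 members were lower in male PGC than in female PGC on all 3 days and 0 were higher on all 3. Among the 30 members detected in all 12 libraries these were 23 and 0. The first of the 3 days rests on PGC female E11.5, the library with few miR-290 reads. On the second day alone 27 of the 57 were lower in males and 8 higher, and on the last day 42 and 1. How many of all microRNAs met the rule of 3 days is not given, so these counts do not set the members apart. miR-329-3p had 1187, 1121 and 244 RPM in female PGC and 459.8, 282 and 96.9 RPM in male PGC, a log2 difference of -1.85 (adjusted p = 0.276) and of -1.56 at equal totals (adjusted p = 0.233). miR-668-3p (-2.35, adjusted p = 0.276) also did not pass. The mesenchymal list was lower in male PGC on all 3 days as well, as given above, and its part was not tested.

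In SC 0 of 53 members were called between the sexes by limma on the deposited scale (3 at an unadjusted p under 0.05, and 0 by voom; 1.17% of all called) and 0 at equal totals (1 unadjusted; 0.0% of all). The medians were -0.55 and -0.06, with 25 members positive and 28 negative at equal totals. In RPM 11 members were lower and 5 higher in male SC on all 3 days, with no count over all microRNAs given. Among members with a mean normalised count of at least 50, miR-369-3p had the lowest difference on the deposited scale, with 3268, 1909 and 2010 RPM in female SC and 1567, 1623 and 686 RPM in male SC (-1.47, adjusted p = 0.498, and -0.95 at equal totals, adjusted p = 0.924). miR-667-3p lay at the other end (0.44, adjusted p = 0.895), with 632 RPM in SC male E11.5 against 77.4 to 190.3 RPM in the other SC libraries.

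A hairpin can yield a mature microRNA from either arm, and 24 of the 33 hairpins had both arms listed. For most of the abundant ones a single arm dominated in every library. The 5p arm took 94.4% ± 1.04 of miR-379 reads in PGC and 95.5% ± 1.101 in SC, and 99.9% ± 0.137 and 99.8% ± 0.0733 of miR-541 reads (SD, n = 6). miR-300 gave nearly all its reads from the 3p arm, with 0.0645% ± 0.158 and 0.390% ± 0.258 from 5p. For miR-411 the 5p share was 80.4% ± 6.15 in PGC and 86.3% ± 3.46 in SC, and the ranges overlapped (68.9 to 86.2% and 82.2 to 90.7%).

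miR-369 was the exception among the 5 hairpins with most reads. Its 5p share was 50.0% ± 19.8 in PGC and 46.7% ± 10.5 in SC. In PGC it was 37.5% (95% exact binomial interval 36.3 to 38.7) in females and 33.7% (30.9 to 36.5) in males at E11.5. At E12.5 it was 79.2% (72.2 to 85.04, 168 reads, of which 35 were 3p) and 70.1% (61.6 to 77.7, 94 reads of 5p and 40 of 3p), and at E13.5 33.7% (29.7 to 37.9) and 45.7% (39.4 to 52.2). Both E12.5 PGC values lay above all other libraries, of which SC male E11.5 was highest at 58.4% (56.4 to 60.5). The 3p arm, which is known to act on messenger RNAs with AU-rich elements, had 209.8 and 217 RPM in these libraries, against 797 and 510.4 RPM for 5p.

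Arm use at E12.5 moved both ways in other hairpins, of which miR-299a and miR-329 were chosen after their values were seen. For miR-299a the 5p share was higher. In PGC it was 32.9% and 13.8% at E11.5, 76.4% (63.0 to 86.8, 55 reads) and 61.8% (43.6 to 77.8, 34 reads) at E12.5, then 17.98% and 9.30% on the last day, females before males. In SC it ran from 12.0 to 39.4%. The 5p arm had 252 and 114 RPM in the E12.5 PGC libraries and 364 and 215 RPM at E11.5, while the 3p arm had 77.9 and 70.6 RPM after 743 and 1345 RPM. For miR-329 the 5p share was lower: 26.4% and 43.3% in PGC at E11.5, and 30.0% and 25.5% at E13.5. In the E12.5 PGC libraries its 5p arm was at 0, that is under 5 reads, beside 187 and 52 reads of 3p, so a share of up to 2.09% and 7.14% is allowed. In SC the miR-329 share ran from 12.4 to 39.8% and was lowest in the E12.5 libraries. With 1 library per day and sex these shares have counting intervals and no test between days.

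**Figure D5:**
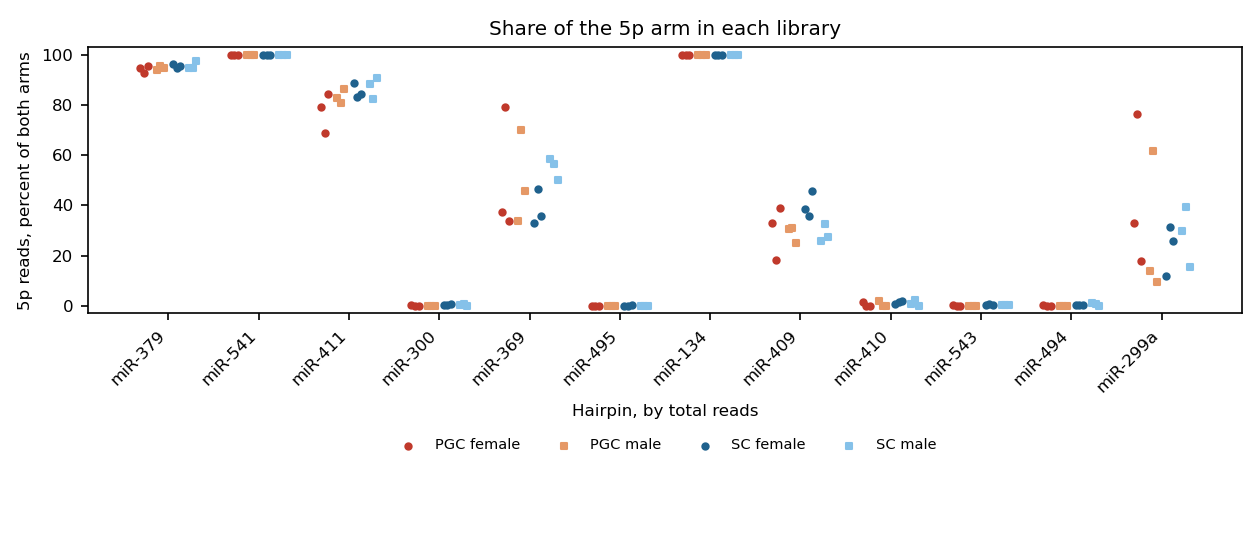
Percent of reads from the 5p arm (vertical axis) for the 12 hairpins with most reads and both arms listed; each point is 1 library, with days from left to right within each colour. Of these 12, miR-369 and miR-299a spread most, with the 2 E12.5 PGC libraries at 79.2% and 70.1% and at 76.4% and 61.8%.

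The changes had similar medians by position in the cluster and by arm, a description with no test. On the deposited scale the median PGC minus SC log2 difference was -3.48 for the 14 tested members of hairpins inside the annotated Mirg gene and -3.64 for the 39 before it, and -3.55 for 24 5p and -3.60 for 29 3p members. For E13.5 minus E11.5 in PGC the medians were -2.92 and -3.02, and -2.85 and -3.07. Across the 53 members, which share libraries and neighbours and are not independent, Pearson's r between hairpin order and the PGC minus SC difference was 0.22, and 0.08 at equal totals.

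For the domain's other regions, the shares called over all microRNAs are again 77.2 and 25.5% for PGC against SC, and 25.1 and 21.4% for the days in PGC. Of the 10 listed microRNAs on the Rtl1-antisense side, 10 were lower in PGC than in SC by deposited values and 9 at equal totals, and 9 and 5 fell from E11.5 to E13.5 in PGC. Of the 19 of the Meg3 and Rian side, 19 and 13 were lower, and 17 and 16 fell. Their shares of reads ran from 0.460 to 2.24% and from 0.132 to 1.15% in PGC, and from 1.73 to 3.95% and 0.552 to 1.79% in SC. Whether the 3 regions differ was not tested.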

How the data were processed

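Small RNA under 100 bases was sequenced from 12 pooled fractions, and the 57 members were found by name in the deposited table of 616 mature microRNAs. The authors' signal values are normalised counts from DESeq, after FastQC, Trim Galore and Bowtie 1.1.2 on GRCm38, per the submitters' processing notes; which tool counted reads, and with which annotation release, is not given in the sources used here. All deposited values were 0 or whole multiples (within 1e-06) of 1 step per library, of 5 reads or more, which gave reads, size factors and RPM (per 1000000 microRNA reads). Nothing under 5 reads was kept, so low values are cut off.

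limma 3.58.1 (R 4.3.3) was run on log2(value + 1) over the 513 microRNAs with a mean of at least 5, with trend and Benjamini-Hochberg adjustment over all of them, threshold 0.05. PGC against SC had the day-by-sex pair as a block (6 pairs, 5 residual degrees of freedom). Changes over days, their difference and sex came from 1 fit of 12 libraries (4 residual degrees of freedom). Each was run on both scales, deposited and equal totals, and the scripts were tested on simulated data. Alternatives were voom on reads, an added 5, no minimum or one of 50, no block, PGC or SC libraries alone, and each library left out. voom scales each library by its total of reads, as equal totals does. Not tested for low values were miR-496a-5p (mean 1.09), miR-495-5p (2.22), miR-539-3p (2.24) and miR-679-5p (4.75); miR-134-3p (5.28) and miR-494-5p (5.82) were just inside.

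Named members are the 10 highest by mean RPM, the 5 largest log2 changes each way per comparison among members with a mean of at least 50, members sharing a seed, and the 5 two-armed hairpins with most reads. Members, lists and tests were chosen with earlier results of these data known. Positions and sequences are from RefSeq (GRCm38.p6).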

Additional observations from a re-analysis of the deposited data

How the results depend on the processing

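For 42 named members and their 140 called changes, alternatives kept the call 1779 times, lost it 489 times and reversed the change 0 times, but counts moved. Many alternatives could not move the estimate. For the days in PGC it stayed the same without any SC library or either E12.5 PGC library (members' medians -2.97 and -2.41). For PGC against SC, leaving out either library of a pair gave the same estimate. The tally is hence no measure of how firm the changes are. Changes not called in the main fits were not followed. The count of members called between PGC and SC was 53 on the deposited scale, 35 at equal totals and 12 with voom. Since voom took library totals from the reads, its counts here and below belong beside those at equal totals. The equal-totals count went to 0 without both E12.5 PGC libraries and to 10 without the pair block. With single libraries left out, the counts on the 2 scales ran from 52 to 53 and from 9 to 44. Of all microRNAs 67.3 to 78.2% and 7.21 to 31.6% were then called lower. The PGC count for E13.5 against E11.5 (42, and 39 at equal totals) went to 12 and 19 with the PGC libraries alone, and ran from 1 to 43 and from 19 to 40 with single libraries left out. In SC the deposited count of 0 became 4 with voom, 1 with an added 5 and 2 at equal totals (1 of these with SC libraries alone), and ran from 0 to 1, or 0 to 5 at equal totals, with single libraries left out. For the difference of changes 2 were called with a minimum mean of 50, and 0 to 1 with single libraries left out. Between the sexes in PGC the 1 call became 0 with voom, an added 5, no minimum or equal totals, and 0 to 1 with single libraries left out. The mean log2 ratio of the summed share, PGC over SC, was -1.38 as a share of reads and -3.61 from deposited sums. For voom, an added 5, another minimum, no block or libraries of a single cell type, shares called over all microRNAs are not given. Those counts are hence no result about the members in particular. The causes were not tested. Depth limits members under 29.98 RPM in the E12.5 PGC libraries.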
